A study of Mus musculus with 4 samples.

Results

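The genes described here are the 10 vascular adhesion molecules Icam1, Icam2, Vcam1, Madcam1, Sele, Selp, Jam2, Cd34, Podxl and Glycam1, chosen by symbol as the surface proteins and mucins by which vessel walls hold passing leukocytes, out of 32286 features counted. They were followed in single cells of the mouse distal jejunum taken 18.5 h after ischemia and reperfusion (I/R) surgery, in which the blood supply of the gut is clamped and then restored. There were 2 control mice, of genotype Foxc1fl/fl;Foxc2fl/fl, and 2 EC-Foxc-DKO mice, which carried the same floxed alleles and in addition Cdh5-CreERT2, a tamoxifen-inducible Cre recombinase driven by the promoter of an endothelial cadherin. Per the study's methods the mice were adult males given tamoxifen by gavage before surgery, and the Cre acts in the endothelium of blood vessels (BECs) and of lymphatic vessels (LECs) alike. Both genotypes had I/R and no unoperated library was analysed here, so the levels below are those of injured tissue.

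A leukocyte leaving the blood is first slowed by selectins on the endothelium, P-selectin (Selp) and E-selectin (Sele), which bind sugars carried by glycoproteins such as PSGL-1. It is then held by immunoglobulin-type receptors, ICAM-1, ICAM-2, VCAM-1 and, in the gut, MAdCAM-1, which bind leukocyte integrins, and it passes between endothelial cells at junctions that contain JAM-B (Jam2). CD34, podocalyxin (Podxl) and GlyCAM-1 are sialomucins that, when suitably sulfated and glycosylated in high endothelial venules, hold passing lymphocytes, while CD34 and podocalyxin also cover the luminal surface of vessels in general. MAdCAM-1 is known as the gut addressin, displayed by venules of the intestinal wall and Peyer's patches and bound by the α4β7 integrin of gut-homing lymphocytes.

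The 4 libraries held 22679 barcodes, of which 5615 had at most 10% mitochondrial UMIs (unique molecular identifiers, each standing for 1 captured transcript) and were kept. The kept cells numbered 348 to 2742 per mouse with a median of 4254 to 19871 UMIs. Libraries shared 51 barcodes, of which 2 were among the kept cells. Control mouse 2 stood apart, with a median mitochondrial share of 54.0% over all its barcodes against at most 25.8% in the other 3 mice and the fewest kept cells. Of the kept cells, 169 were BECs (30 and 29 in control mice 1 and 2, 86 and 24 in EC-Foxc-DKO mice 1 and 2), and their cluster showed all 10 of the study's BEC markers, none of which is an adhesion molecule listed above. LECs numbered 6 and 10 in the controls, with 5 in EC-Foxc-DKO mouse 1 and 0 in mouse 2. The targeted genes were too sparse to check the labels by their loss: Foxc1 had 1 and 5 UMIs in control BECs against 1 and 0 in EC-Foxc-DKO BECs, and Foxc2 had 0 in all 4 mice. Cre itself had 0 UMIs in both control BEC samples and 3 and 2 in the EC-Foxc-DKO ones.

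Transcripts of these genes ranged from nearly exclusive to BECs to widely shared among cell types. All 10 Sele UMIs in kept cells, 99.2% of the 379 Madcam1 UMIs, 92.3% of the 1111 Podxl UMIs, 91.9% of the 149 Selp UMIs and 85.9% of the 412 Jam2 UMIs lay in BECs, although BECs made up only 2.07 to 8.33% of the kept cells of a mouse. The share was 59.0% of 748 UMIs for Cd34, 38.4% of 654 for Icam2, 19.5% of 1000 for Icam1 and 11.3% of 485 for Vcam1. Glycam1, a secreted mucin of lymph node high endothelial venules, had 0 UMIs in the 5615 kept cells. In BECs a count of 0 allows a Glycam1 level of up to 6.74 to 25.5 UMIs per 1000000 UMIs (CPM) in a mouse, by counting error only.

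**Figure D1:**
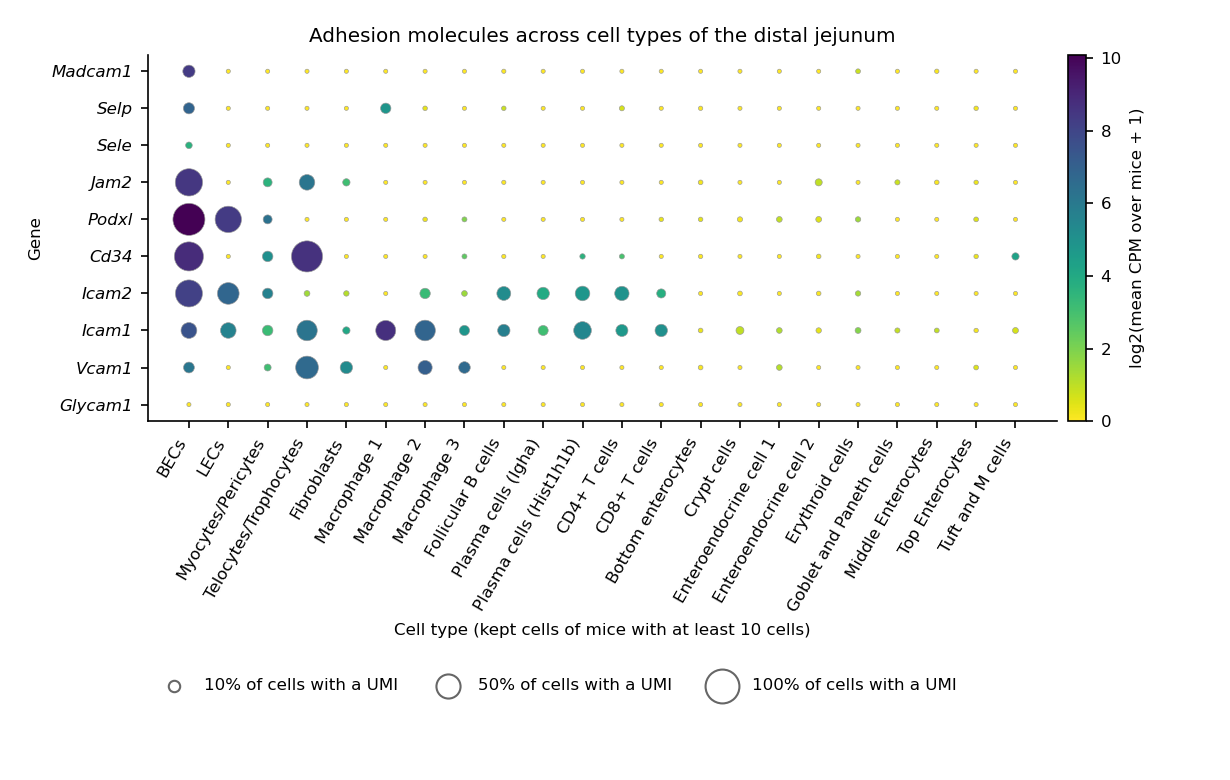
Level of each adhesion gene in each cell type, with color for log2(mean CPM + 1) over the mice that had at least 10 cells of the type and dot area for the percentage of those cells with a UMI. Madcam1, Sele, Selp, Jam2, Podxl, Cd34 and Icam2 had their highest mean in BECs, whereas Icam1 was highest in Macrophage 1 (408 CPM) and Vcam1 in Macrophage 2 (134 CPM).

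Among the selectins, Selp reached 0 and 147 CPM in the BECs of control mice 1 and 2 and 205 and 110 CPM in those of EC-Foxc-DKO mice 1 and 2, a mean of 116 ± 86.2 CPM (SD, n = 4). P-selectin is stored in granules of endothelial cells and platelets for rapid display. Over all BECs of control mouse 1, a count of 0 allows at most 20.5 CPM by counting error only. That mouse had only 2 cells of the venous-like population that held every BEC Selp UMI (below). Its 0 therefore does not show that it lay apart from the other mice. The only other cluster above 1 CPM was Macrophage 1, at 27.6 ± 16.3 CPM (SD, n = 2) from 4 UMIs in 50 cells, a cluster that the study's markers name but whose leading genes are those of neutrophils. Selp was detected in 16 of 169 BECs (9.47%) and in 4 of 1379 follicular B cells (0.290%), which do not make P-selectin and give the background of free RNA, at median depths within a mouse of 3764 to 5118 and 2754 to 3321 UMIs. Sele, whose protein is made only after cytokine stimulation of the endothelium, was sparse, with 0 and 5 UMIs in control BECs and 3 and 2 in EC-Foxc-DKO BECs. This came to a mean of 11.5 ± 10.0 CPM (SD, n = 4), and Sele was found in no other cell type.

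Madcam1 was the member most confined to BECs by its UMIs apart from the sparse Sele. Its level there was 75.0 and 401 CPM in control mice 1 and 2 and 553 and 246 CPM in EC-Foxc-DKO mice 1 and 2, a mean of 319 ± 205 CPM (SD, n = 4). The next highest mean, in erythroid cells, was 0.792 CPM and rested on 1 UMI. The range over mice in BECs did not overlap that in any other cell type, although only 20 of 169 BECs (11.8%) held a Madcam1 UMI, against 1 of 1379 follicular B cells (0.0725%).

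The immunoglobulin-type receptors were spread more broadly. Icam2, the constitutive ligand of LFA-1, was even across the BECs of the 4 mice, at 327 and 281 CPM in controls and 240 and 280 CPM in EC-Foxc-DKO mice (mean 282 ± 35.5, SD, n = 4). Next came LECs, at 112 CPM in the single mouse with at least 10 of them, and then myocytes and pericytes at 51.3 ± 33.1 (n = 2), follicular B cells at 36.0 ± 24.0 (n = 4) and CD4+ T cells at 30.2 ± 9.75 (n = 3), whose ranges overlapped one another. Icam1, the inducible ligand of LFA-1 and Mac-1, had 61.4 and 285 CPM in control BECs and 236 and 144 CPM in EC-Foxc-DKO BECs. It was higher on average in Macrophage 1 (408 ± 281 CPM, n = 2) than in BECs (182 ± 99.3, n = 4) and in Macrophage 2 (115 ± 111, n = 4), but these neighbors overlapped in their ranges. Vcam1, the VLA-4 ligand, also had no order that stood beyond the spread among its 4 highest types, Macrophage 2 (134 ± 141 CPM, n = 4), telocytes and trophocytes (100 ± 29.3, n = 2), Macrophage 3 (99.4 ± 77.7, n = 3) and BECs (68.9 ± 45.1, n = 4). In Macrophage 2 the spread came from the controls, in which Vcam1 stood at 4.49 CPM in mouse 1 and 333 CPM in mouse 2, against 79.5 and 119 CPM in the EC-Foxc-DKO mice. In BECs Vcam1 was 27.3 and 80.2 CPM in controls and 40.5 and 127 CPM in EC-Foxc-DKO mice, so both genotypes spanned a wide and shared range.

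The junction gene and the mucins followed. Jam2 stood at 307 and 473 CPM in control BECs and 382 and 280 CPM in EC-Foxc-DKO BECs (mean 360 ± 86.3, SD, n = 4), above telocytes and trophocytes at 70.9 ± 19.4 (n = 2) with no overlap. Podxl varied little over mice, at 1145 and 1083 CPM in control BECs and 1108 and 1037 CPM in EC-Foxc-DKO BECs. Its mean of 1093 ± 45.6 (n = 4) was followed by LECs at 319 CPM in 1 mouse and by myocytes and pericytes at 79.3 ± 56.9 (n = 2), and none of these ranges overlapped. Cd34 was shared between BECs, at 484 and 557 CPM in controls and 467 and 314 CPM in EC-Foxc-DKO mice, and telocytes and trophocytes, stromal cells under the epithelium, at 404 ± 119 (n = 2). The BEC mean of 456 ± 102 (n = 4) and the stromal mean did not differ beyond their spread.

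Most of the integrin chains and other receptors that bind these molecules had their highest mean in leukocyte clusters. Itgb7, the β7 chain of the MAdCAM-1 receptor, was highest in CD4+ T cells (297 ± 11.3 CPM, SD, n = 3) and CD8+ T cells (278 ± 36.3, n = 4), against 6.05 ± 4.90 in BECs (n = 4). Itga4, the α4 chain of that receptor, was at 165 ± 40.1 CPM in CD4+ T cells (n = 3) and 78.9 ± 43.8 in CD8+ T cells (n = 4). The level of 1 chain does not show the assembled receptor. Selplg, which encodes PSGL-1, was highest in Macrophage 1 (764 ± 111, n = 2) and CD8+ T cells (506 ± 26.0, n = 4). The integrin chains Itgb1 and Itga4 were not confined to leukocytes: both had their highest mean in myocytes and pericytes, at 1313 ± 377 and 357 ± 213 CPM (n = 2), and Itgb1, which many cell types use for matrix adhesion, stood at 473 ± 70.4 CPM in BECs (n = 4).

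Within the BECs the selectins and the addressin were held by 1 small population. BECs were re-clustered with the 10 adhesion genes left out, so that the grouping did not use them. This gave 103 capillary-like cells (4 of 6 capillary markers, led by genes such as Esm1, Car4 and Gpihbp1), 39 arterial-like cells (5 of 7 arterial markers, led by Mgp, Dkk2 and Fbln5) and 27 venous-like cells (5 of 6 venous markers, led by Ackr1 and Nr2f2, the latter the transcription factor of vein identity). The venous-like cells also carried H2-Aa and Cd74 among their leading genes and 5 of 6 leukocyte markers at 2 times the level of the other BECs or more, and they were deeper, with a median of 7201 UMIs against 3839 in capillary-like and 4608 in arterial-like cells. The summed platelet list was also highest there, at 113 CPM against 6.57 in capillary-like and 0 in arterial-like cells: Ppbp and Pf4 came from 1 venous-like cell each, Itga2b was in 6 of 27 cells, and Gp9, Gp1bb and Treml1 were at 0. The part of leukocyte and platelet transcripts in the levels below was not tested. All 376 Madcam1, all 137 Selp and all 10 Sele UMIs of the BECs lay in the venous-like cells. A count of 0 allows up to 6.57 CPM of each in the capillary-like cells and 13.6 CPM in the arterial-like cells, against 1467 CPM for Madcam1, 535 CPM for Selp and a mean over mice of 41.7 ± 37.2 CPM (SD, n = 4) for Sele in the venous-like cells.

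**Figure D2:**
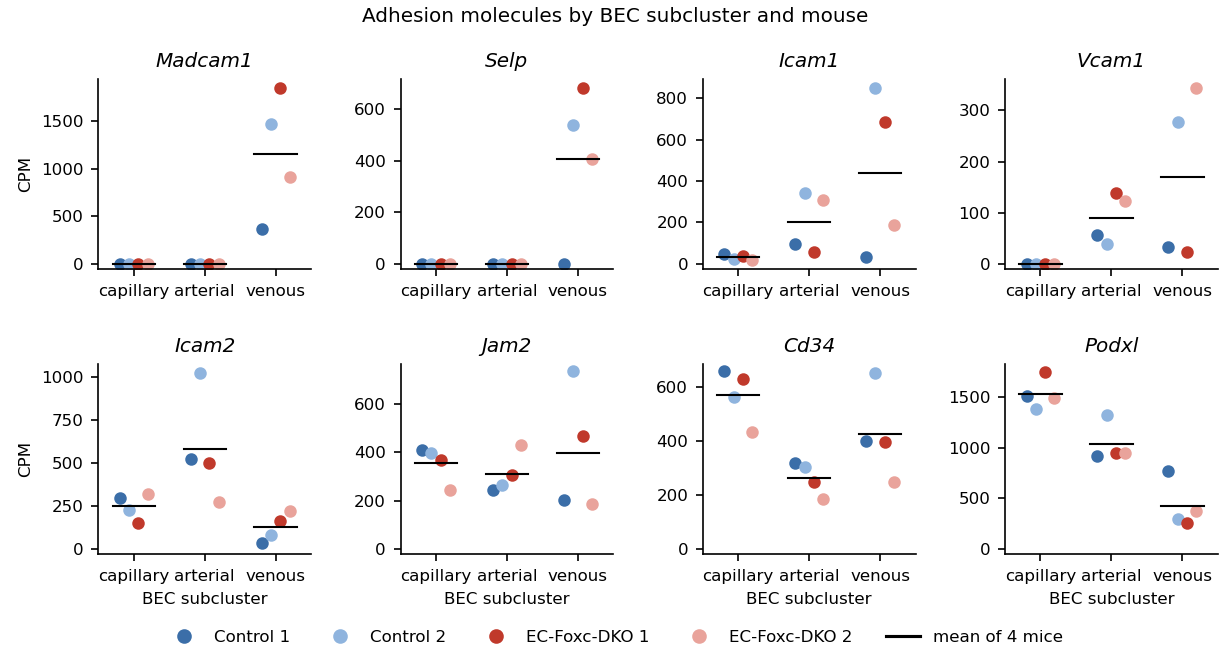
Level of 8 adhesion genes in the capillary-like, arterial-like and venous-like BECs, as CPM with 1 point per mouse and a line at the mean of the 4 mice. Madcam1 and Selp lie at 0 in every mouse outside the venous-like cells, Podxl was highest in capillary-like cells and Icam2 was highest in arterial-like cells on average.

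The sequences just upstream of these 3 genes are shown because their transcripts shared 1 population of cells. Each run is the 250 bases before the first base of the gene on its own strand, from RefSeq on GRCm38.p6, which held 6 of the 10 genes. Capitals mark matches to the NF-kB motif, the sequence bound by the transcription factor that carries inflammatory signals to many adhesion genes.
Madcam1, chr10:79664309-79664558, + strand: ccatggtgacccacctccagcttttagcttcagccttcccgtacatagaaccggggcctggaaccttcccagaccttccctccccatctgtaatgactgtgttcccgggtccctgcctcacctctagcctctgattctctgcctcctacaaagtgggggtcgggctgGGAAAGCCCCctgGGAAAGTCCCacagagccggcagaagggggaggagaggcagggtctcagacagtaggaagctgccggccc
Selp, chr1:164115014-164115263, + strand: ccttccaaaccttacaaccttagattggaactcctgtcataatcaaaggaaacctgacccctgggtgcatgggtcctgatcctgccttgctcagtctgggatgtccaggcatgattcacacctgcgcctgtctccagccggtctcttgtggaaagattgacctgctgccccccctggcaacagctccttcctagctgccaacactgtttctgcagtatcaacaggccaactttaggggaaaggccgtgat
Sele, chr1:164047984-164048233, + strand: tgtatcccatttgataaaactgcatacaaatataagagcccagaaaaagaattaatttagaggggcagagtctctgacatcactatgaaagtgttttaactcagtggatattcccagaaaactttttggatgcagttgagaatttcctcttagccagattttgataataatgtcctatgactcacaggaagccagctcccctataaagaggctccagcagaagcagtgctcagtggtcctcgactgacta
The Madcam1 window held 2 NF-kB matches, at bases -83 to -74 and -70 to -61 from the gene start, both on the minus strand, and the Selp and Sele windows held none. Of 32851 promoter windows of this length 7.25% held at least 1 match. The ETS-type motif AGGAAG, searched on both strands, was at -16 to -11 in Madcam1, -65 to -60 in Sele and -64 to -59 in Selp, and was present in 5 of the 6 windows against 29.5% of all windows. The exact sequence GTAAACA, 1 form of the forkhead motif, was in 0 of the 6 windows and in 3.17% of all. The study looked for FOX and FOXC sites with the broader motifs RYMAAYA and RYACACA, which allow several bases at some positions. Those motifs were not searched here, so the 0 does not show that the windows lack FOXC-type sites. A match describes letters in the window and not occupancy. A window without a match may still hold sites that differ from the motif searched. Madcam1 itself spans chr10:79664559-79668537 with 5 exons, and Sele (chr1:164048234-164057677, 14 exons) and Selp (chr1:164115264-164150026, 16 exons) are neighbors on chromosome 1. Selp overlaps the annotated genes Gm16587 and Gm16548, and Icam1, Vcam1, Jam2 and Cd34 each overlap 1 annotated gene, so their counts are uncertain there.

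In the venous-like cells Madcam1 was detected in 20 of 27 (74.1%, exact 95% interval 53.7 to 88.9%) and at 368 and 1472 CPM in control mice 1 and 2 and 1846 and 906 CPM in EC-Foxc-DKO mice 1 and 2. Thinned to 1000 UMIs per cell, to set depths equal, the share of venous-like cells with Madcam1 was 57.1%. Thinned shares here and below leave out cells with fewer than 1000 UMIs. These were 2 venous-like, 1 arterial-like and 9 capillary-like cells. Selp was detected in 16 of 27 (59.3%, thinned 29.5%) and stood at 0 and 540 CPM in controls and 683 and 406 CPM in EC-Foxc-DKO mice. Of the 16 cells with Selp, 15 also held Madcam1, and the 4 cells with Sele all held both. Single cells weighed heavily, since 1 cell of control mouse 2 contributed 79 of its 90 Madcam1 UMIs. The venous-like population of that mouse was 3 cells, and that of control mouse 1 was 2, so the control values rest on very few cells.

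Because venous-like cells included some with leukocyte transcripts, they were split by Ptprc, which encodes the leukocyte protein CD45. The 7 venous-like cells with a Ptprc UMI (1 from control mouse 1 and 6 from EC-Foxc-DKO mouse 1) carried 6507 CPM of the summed leukocyte list, against 21.1 CPM in the other 20. Those 20 cells held 327 of the 376 Madcam1 UMIs (1723 CPM, against 736 CPM in the 7), 121 of the 137 Selp UMIs and all 10 Sele UMIs.

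**Figure D3:**
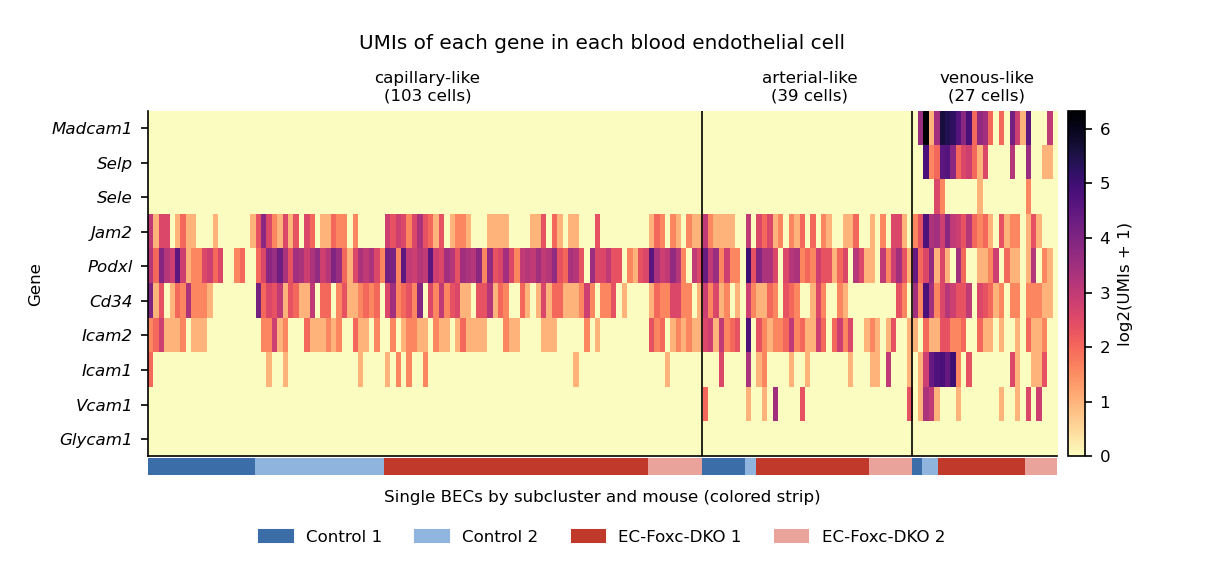
Each adhesion gene in each of the 169 BECs, as log2(UMIs + 1) in color with 1 column per cell, ordered by subcluster and mouse. The Madcam1, Selp and Sele UMIs fall in the 27 venous-like cells, while Podxl, Cd34, Jam2 and Icam2 appear across all 3 populations.

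The other genes divided the vascular tree in different ways. Podxl, whose negatively charged coat lines the lumen, was at 1535 ± 154 CPM (SD, n = 4) in capillary-like, 1038 ± 195 in arterial-like and 423 ± 236 in venous-like cells, and the capillary-like range over mice (1388 to 1751 CPM) lay above the arterial-like range (919 to 1329) and the venous-like range (255 to 770). Icam2 averaged 581 ± 317 CPM in arterial-like, 250 ± 76.2 in capillary-like and 125 ± 82.9 in venous-like cells. Arterial-like (276 to 1026) and capillary-like cells (152 to 320) overlapped. The value of 1026 CPM, in control mouse 2, came from 1 of its 2 arterial-like cells. In EC-Foxc-DKO mouse 2 arterial-like cells (276 CPM) lay below capillary-like cells (320 CPM), and in the other mice they lay above. Cd34 was at 572 ± 101, 264 ± 61.1 and 426 ± 168 CPM in capillary-like, arterial-like and venous-like cells, and the capillary-like range (433 to 662) lay above the arterial-like range (184 to 319). Jam2 was alike in its means, at 354 ± 75.0, 311 ± 83.0 and 397 ± 259 CPM, so no difference beyond the spread was seen. These are descriptions over the same 4 mice. No test was made between populations of the same BECs.

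Icam1 and Vcam1 shared the venous-like and arterial-like cells. Icam1 had 150 of its 195 BEC UMIs in venous-like cells, 30 in arterial-like and 15 in the far more numerous capillary-like cells. Its venous-like level was very uneven between mice, at 33.5 and 850 CPM in controls and 683 and 187 CPM in EC-Foxc-DKO mice, and 5 cells with 20 to 31 UMIs each held 125 of the 150 UMIs. Icam1 was found in 14 of 27 venous-like cells (51.9%, thinned 26.9%), 28.2% of arterial-like cells (thinned 9.37%) and 9.71% of capillary-like cells (thinned 2.27%). Vcam1 had 32 UMIs in venous-like, 23 in arterial-like and 0 in 103 capillary-like cells. Its venous-like levels were 33.5 and 278 CPM in controls and 22.5 and 344 CPM in EC-Foxc-DKO mice. Of the 20 cells with Madcam1, 11 also held Icam1 and 8 held Vcam1.

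Across 23 cell clusters, the genes whose level most resembled each adhesion gene were described by Pearson's r of log2(CPM + 10), over points that share libraries and with no p. Madcam1 was most like Exoc3l2 (r = 1.000), Cytl1 (0.999) and C1qtnf9 (0.999). Its mean outside BECs was at most 0.792 CPM, so these r rest on the BEC cluster alone. They describe confinement to BECs and not expression in the same BECs. Selp was most like Vwf (0.945), the von Willebrand factor stored with P-selectin, followed by Exoc3l2 (0.922) and Madcam1 (0.921). Here too r does not describe expression in the same BECs. Vwf was at 212 CPM in capillary-like and 345 CPM in arterial-like cells, where Selp had 0 UMIs. Icam2 was most like Pecam1 (0.950), which encodes the endothelial junction protein CD31, and S1pr1 (0.940). Podxl was most like Unc45b (0.977), Adgrf5 (0.974) and Kdr (0.959), the VEGF receptor, and Jam2 like Fat4 (0.966). Cd34 was most like Sulf1 (0.919) and the matrix gene Mgp (0.915), Icam1 like Chst11 (0.913) and Vcam1 like Dram1 (0.931). The 3 nearest genes of each member with at least 50 UMIs made 24, not all of which are named here. With the offset set to 1 CPM, 18 of the 24 remained, and 16 remained when the unnamed cluster of 9 cells was left out. Without that cluster none of the genes named for Podxl remained, and Ptprb (0.998), Npr3 (0.996) and Myct1 (0.994) took their place. Cd34 then lost Sulf1 and Mgp.

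The genotype comparison asked whether the loss of Foxc1 and Foxc2 from endothelial cells moved these genes in BECs after I/R. No adhesion gene passed the test, and for Selp, Madcam1, Icam1 and Vcam1 the 2 mice of a genotype lay far apart. Counts were summed per mouse over BECs and fitted with edgeR's quasi-likelihood test over 3504 genes. No gene of the whole fit passed an adjusted p of 0.05 (0% called, with 103 genes under an unadjusted p of 0.05, while DESeq2 called 1 gene, 0.0285%, and edgeR without a filter on low counts 66). Of the 10 genes, 8 passed the filter on low counts and 0 passed the test, all with an adjusted p of 0.999, and their median log2 fold change was 0.03 against 0.00 over all genes. Sele and Glycam1 did not pass the filter and were not tested. Values below are CPM scaled by edgeR's TMM method over the genes in the fit, and so are somewhat higher than the plain CPM above.

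Selp was 0 and 172 TMM-scaled CPM in controls and 240 and 127 in EC-Foxc-DKO mice, a log2 fold change of 1.02 (SE 0.79, adjusted p = 0.999 by edgeR). Madcam1 was 87.9 and 470 in controls and 650 and 284 in EC-Foxc-DKO mice, a log2 fold change of 0.74 (SE 0.62, adjusted p = 0.999 by edgeR). The genotypes overlapped for both genes, and both differences rested on control mouse 1, the lowest of the 4. Without control mouse 2 the edgeR log2 fold change of Madcam1 was 2.47 (adjusted p = 0.00229) and that of Selp was 8.30 (adjusted p = 5.50e-06). That fit has 1 control mouse, so its spread between mice comes from the EC-Foxc-DKO pair alone, and the lone control is assumed to vary like them. The only control was at 0 Selp UMIs. The mean of the EC-Foxc-DKO mice, 157 CPM, was 7.70-fold above the limit that a count of 0 allows (3 counts per library, 20.5 CPM). Counting error was taken for the control only. That control had only 2 venous-like cells, the population that held every BEC Selp UMI. The fold is thus no lower bound on a genotype difference. Without control mouse 1 the log2 fold changes were 0.04 for Madcam1 and 0.18 for Selp, and without EC-Foxc-DKO mouse 1 that of Madcam1 was -0.03.

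Both genes lay in venous-like cells, whose share of the BECs also varied. It was 6.67% (exact 95% interval 0.818 to 22.1%) and 10.3% (2.19 to 27.4%) in the controls and 18.6% (16 of 86 cells, upper bound 28.4%) and 25.0% (9.77 to 46.7%) in the EC-Foxc-DKO mice. The genotypes did not overlap, but the intervals did, and an exact permutation test of 2 against 2 mice cannot go below a p of 0.333. Capillary-like shares did not overlap either, at 66.7 and 82.8% in controls and 57.0 and 41.7% in EC-Foxc-DKO mice, whereas arterial-like shares did. The shares of a mouse make up all of its BECs, so the capillary-like difference is not independent of the venous-like one. The venous-like counts include the 7 cells with a Ptprc UMI, 1 from control mouse 1 and 6 from EC-Foxc-DKO mouse 1. The summed leukocyte list stood at 723 and 8.92 CPM in control BECs and 960 and 331 CPM in EC-Foxc-DKO BECs, and the mural cell list at 6.82 and 103 against 391 and 561 CPM. Their part in the member levels was not tested.

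The remaining 6 tested genes had smaller log2 fold changes, with an adjusted p of 0.999 by edgeR. Icam2 was 384 and 329 in controls and 283 and 323 in EC-Foxc-DKO mice (log2 fold change -0.24, SE 0.32), and Cd34 was 567 and 653 against 550 and 362 (-0.40, SE 0.33). These were the 2 genes in which every EC-Foxc-DKO mouse lay below every control, as 14.9% of all tested genes did, while 30.0% did not overlap in either direction. Podxl, at 1343 and 1270 against 1303 and 1195, gave -0.06 (SE 0.25), and Jam2, at 360 and 554 against 449 and 323, gave -0.23 (SE 0.35). Icam1, at 71.9 and 334 against 277 and 166, gave 0.12 (SE 0.55), and Vcam1, at 32.0 and 94.1 against 47.6 and 147, gave 0.23 (SE 0.65).

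**Figure D4:**
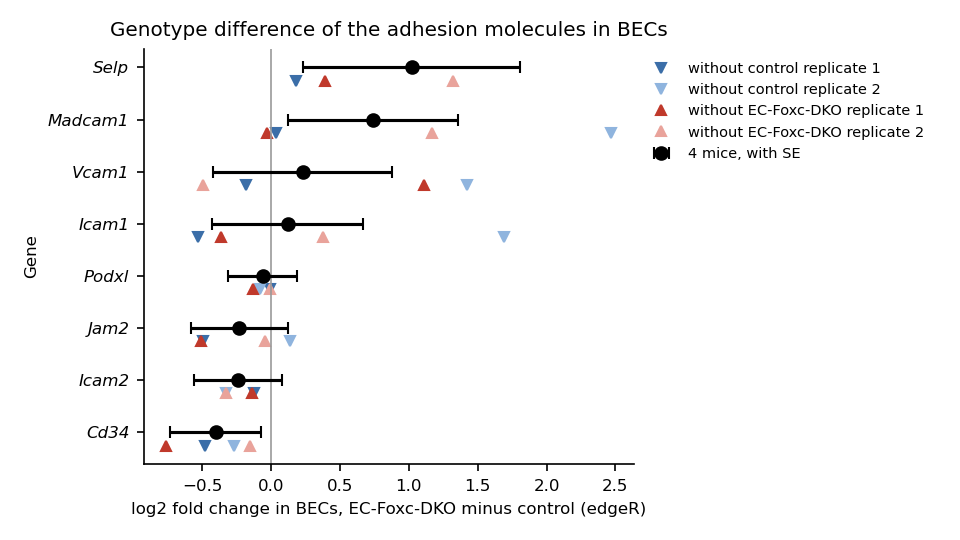
Log2 fold change of each tested adhesion gene in BECs, EC-Foxc-DKO against control, with its standard error, and the values with each mouse left out in turn. Points beyond 3 on either side are not drawn, which concerns Selp without control mouse 2 at 8.30. The fold changes run from -0.40 for Cd34 to 1.02 for Selp, and leaving out control mouse 2 moves Madcam1 to 2.47.

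No gene of the related lists passed the adjusted threshold in the BEC fit. Of 12 other adhesion and transmigration genes of vessels 9 were tested, with a median log2 fold change of -0.10, among them Pecam1 (-0.10, SE 0.25), Cdh5 (-0.06, SE 0.28), which encodes VE-cadherin, and Vwf (-0.60, SE 0.36). Of 12 genes of NF-kB and cytokine input 8 were tested, with a median of 0.10 and no shared direction. They included Nfkbia (0.20, SE 0.32), an inhibitor that NF-kB itself induces, and Il1r1 (0.73, SE 0.41), the receptor of interleukin 1. Irf1 (-0.39, SE 0.45) and Ltbr (-0.30, SE 0.47) were among those with a negative value. Of 8 genes that sulfate or glycosylate selectin ligands 3 were tested, with a median of -0.20. These were B3gnt3 (-0.21, SE 0.39), St3gal6 (-0.20, SE 0.32) and St3gal4 (0.78, SE 0.48). All 6 venous markers were tested, with a median of 0.76, and Lrg1 (1.18, unadjusted p = 0.0395 by edgeR) and Tmem252 (1.21, unadjusted p = 0.0224 by edgeR) were under 0.05 before adjustment, as were 103 of the 3504 genes, and at 0.999 after it. The venous markers did not share a direction. Ackr1 had 0.82 (SE 0.70) and Nr2f2 0.70 (SE 0.55), whereas Vwf had -0.60 (SE 0.36) and Ephb4 -0.48 (SE 0.37). Ephb4 was no higher in venous-like (133 CPM) than in capillary-like cells (164 CPM).

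In other cell types 5 differences could be fitted beside those of the LECs, and none passed. In LECs, with 2 control mice and 1 EC-Foxc-DKO mouse, 17 of 863 genes were called (1.97%), and neither Podxl (853 and 493 TMM-scaled CPM in controls, 314 in the EC-Foxc-DKO mouse, adjusted p = 0.725 by edgeR) nor Icam2 (0 and 172 against 549, log2 fold change 2.20, SE 1.40, adjusted p = 0.661 by edgeR) was among them. Neither overlapped between genotypes, as 73.3% of the tested genes did not with a single EC-Foxc-DKO mouse. The 14 Icam2 UMIs of the EC-Foxc-DKO LECs came from 1 cell. Icam1 in CD8+ T cells was 44.9 and 36.6 in controls and 28.5 and 30.9 in EC-Foxc-DKO mice (-0.48, SE 0.41, adjusted p = 0.999 by edgeR, 0% of 4809 genes called, 30.1% not overlapping). Follicular B cells had -0.27 (SE 0.48) for Icam1 and -0.05 (SE 0.57) for Icam2, both with an adjusted p of 1.00 by edgeR and 0% of 3418 genes called. The Icam1 values there did not overlap (54.3 and 88.1 against 52.2 and 42.3), as in 28.9% of the tested genes.

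In Macrophage 2 the controls lay on both sides of the EC-Foxc-DKO mice. Vcam1 there was 4.59 and 350 TMM-scaled CPM in controls and 80.0 and 121 in EC-Foxc-DKO mice, a log2 fold change of -0.75 (SE 1.21, adjusted p = 1.00 by edgeR), with 0% of 6860 genes called. Icam1 was 40.2 and 295 against 77.5 and 64.8, a log2 fold change of -1.16 (SE 0.76, adjusted p = 1.00 by edgeR). Control mouse 2 was the highest for both genes and control mouse 1 the lowest, so the call depends on which is kept. Each of these fits has 1 control mouse, and its spread comes from the EC-Foxc-DKO pair alone. Without control mouse 1 the edgeR log2 fold changes were -1.76 for Vcam1 (adjusted p = 0.0160) and -1.99 for Icam1 (adjusted p = 0.00705), whereas without control mouse 2 they were 4.38 for Vcam1 (adjusted p = 1.78e-06) and 0.82 for Icam1 (adjusted p = 0.999).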

How the data were processed

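Single cell 3' RNA libraries of the distal jejunum were analysed, 1 for each of 4 mice. The authors deposited UMI counts per gene and barcode for each mouse, made with Cell Ranger on mm10 with an added Cre sequence. The submitters' processing notes name Cell Ranger 4.0.0, while the study's methods name another version. A barcode was kept with at most 10% mitochondrial UMIs. Counts were log-normalized to 10000 UMIs, reduced to 15 principal components and clustered with leidenalg 0.10.2 on 15 neighbors at resolution 0.5, and clusters were named from the study's published markers, so names are rebuilt. A doublet caller's own threshold marked 16 kept cells, too few to rely on, so doublets were not removed, except for the 292 highest scores in an alternative. Levels are UMIs per 1000000 UMIs of a mouse's cells of that type, and means over cell types use mice with at least 10 such cells. Values within BEC subclusters, the correlations across clusters and the LEC fit also use mice with fewer. Shares have exact (Clopper-Pearson) 95% intervals, and a count of 0 allows up to 3 counts. Both cover counting error only. For genotype, each cell type's UMIs were added up by mouse, filtered with filterByExpr and tested in edgeR 4.0.16 (R 4.3.3) by the quasi-likelihood test after TMM, with Benjamini-Hochberg adjustment over all tested genes and a threshold of 0.05. DESeq2 1.42.0 was an alternative, as were no filter, other mitochondrial limits, doublet removal, a replicate block and leaving out each mouse. Python 3.11.15, numpy 2.4.6, pandas 2.3.3, scipy 1.17.1 and matplotlib 3.10.9 were used. Scripts were tested on simulated data. Cells are not replicates, and the replicates are mice. All 10 adhesion genes are named, with 1 to 3 of the 3 genes most like each member with at least 50 UMIs. Genes of fixed lists are given by count with at most 4 named per list, except the venous and platelet lists. The members and lists were chosen with earlier results of these data known. Promoter sequences are from RefSeq (GRCm38.p6) and gene coordinates from GENCODE vM21 (GRCm38). 1 receptor gene of the lists is not reported here.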

Additional observations from a re-analysis of the deposited data

Results flagged for a closer look

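The barcodes over the mitochondrial limit of 10%, some of which enter only the alternatives with another limit, also held these transcripts. The 17064 barcodes removed carried 516 UMIs of Icam1, 330 of Icam2, 263 of Vcam1, 118 of Madcam1, 48 of Selp, 348 of Jam2, 545 of Cd34 and 1078 of Podxl. They were above the limit that a count of 0 allows and are given as values only. For Podxl this was 1078 UMIs against 1111 in the kept cells, and 515 of them came from control mouse 2, the mouse with the highest mitochondrial share. Raising the limit to 20% gave 66 BECs in that mouse in place of 29, and 50 in place of 24 in EC-Foxc-DKO mouse 2.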

How the results depend on the processing

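In BECs, genes past the adjusted threshold numbered 0, against 66 with no filter on low counts, 1 with DESeq2, 3 with the replicate block and 26 to 69 with 1 mouse left out. Adhesion genes past it numbered 0 to 2 with 1 mouse left out. In LECs the count was 17, against 6 with no filter, 1 with DESeq2, 10 at a mitochondrial limit of 20% and 4 with the highest doublet scores removed. In Macrophage 2, 0 to 2 adhesion genes passed with 1 mouse left out. The log2 fold change turned in BECs for Icam1 to -0.15 without cells holding a Ptprc UMI (-0.53 to 1.69 with 1 mouse left out), for Vcam1 to -0.35 without the highest doublet scores (-0.49 to 1.42) and for Podxl to 0.08 at a limit of 20% and 0.06 with LECs added. With 1 mouse left out it ran from -0.03 to 2.47 for Madcam1 and from -0.51 to 0.14 for Jam2. Icam2 in follicular B cells turned to 0.04 with no filter and 0.05 at a limit of 20% (0.01 to 0.25), Icam1 in Macrophage 2 ran from -1.99 to 0.82, and Vcam1 there ran from -1.76 to 4.38. The cause of these shifts was not tested. The venous-like share of BEC Vcam1 UMIs was 58.2%, and 40.5 to 78.4% with 1 mouse left out.

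Replicate numbers are shared by the labels, which do not say that they pair mice. Same-numbered mice deviated with a correlation of -0.01 in BECs and from -0.35 to 0.15 over the other fitted cell types. With the replicate block no adhesion gene passed, and Vcam1 in Macrophage 2 stood at 0.74. No paired analysis was possible in LECs because 3 mice leave no residual degrees of freedom with a block. A crossed pairing, added after the data were seen, was run where the correlation was under -0.1, and called 0 adhesion genes in Macrophage 2, with Vcam1 at 0.45.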
